A study of Saccharomyces cerevisiae with 2 samples.

Results

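This account covers 42 nuclear genes of budding yeast (Saccharomyces cerevisiae) that serve carbon sources other than glucose or carry hexoses into the cell. They are listed by name and role, with no cutoff on a measured value, though the list was drawn up with earlier results of these data known. All 42 were found among the 6002 nuclear protein-coding genes of the gene table. The series mapped DNA bound by S9.6, a monoclonal antibody that recognises RNA:DNA hybrids, by DRIP-seq, in which restriction-cut genomic DNA is immunoprecipitated and sequenced. It has 1 library of S9.6-bound DNA, the S9.6 IP, and 1 input library from the same strain. The S9.6 IP has a deposited peak list, and the input has no values here, so no value below has a replicate and no p-value is given. Cells of strain WRBb-9D were asynchronous and in mid-log growth in YPAD, a rich medium whose sugar is glucose. The strain is named wild type in the title. It is MATa, carries bar1-delta, a deletion of a secreted protease gene, and has a tagged helicase gene, RRM3::FLAG::KAN. At the URA3 locus it has ura3::URA3/GPD-Tk(7x), which names a glycolytic promoter, and its other marker mutations lie in LEU2, TRP1 (trp1-1), ADE2 (ade2-1), HIS3 (his3-11,15) and CAN1 (can1-100). None of the 42 genes appears in that genotype. No library from cells depleted of hybrids was analysed here.

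An RNA:DNA hybrid forms where a transcript pairs with its template strand, and in yeast such hybrids are known above all from heavily transcribed genes. In glucose medium the repressor Mig1, active while the kinase Snf1 is off, helps to shut genes of galactose, sucrose, ethanol, glycerol and fatty acid use, and the genes that build sugar back from smaller molecules. Glucose itself enters through Hxt transporters: HXT1 is known to be induced by high glucose, HXT3 by high and low glucose, and HXT2 and HXT4 mainly by low glucose. The list therefore holds genes known to be silent or low in this medium beside HXT1 to HXT4, grouped here as uptake genes used in glucose. Since HXT2 and HXT4 are known mainly from low glucose, their state in this culture is uncertain. Transcripts and the glucose left in the culture were not measured, so these states are background from the literature and not results.

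Each gene was taken with 500 bp on either side. A gene is touched here when at least 1 bp of that stretch lies inside a peak, and its cover is the percent of the stretch inside peaks. Of all nuclear protein-coding genes, 30.6% were touched, with a mean cover of 6.79% and a median of 0%. The 1687 nuclear peaks took up 7.37% of the nuclear genome. Each peak has a whole-number score from the authors, and the sources used here do not give its scale. The median nuclear score is 24 and the commonest score, 15, belongs to 451 peaks. The score served to rank peaks of this list and to choose among them.

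Of the uptake genes, HXT1, HXT2 and HXT4 had 20.9% to 37.8% of gene and flanks inside peaks, while HXT3 had none. Most genes of their size had no cover, so any touched gene exceeds most of them. The genes repressed in glucose were touched about as often as genes of their size. Among these, CAT2 (51.9%) and POX1 (22.5%) had more cover than HXT4. Of the 42 genes, 14 were touched (33.3%, exact binomial 95% interval 19.6 to 49.5, which treats genes as independent). Genes of like length, within 10% of each member, were touched in 31.9% of cases on average, so the share for the whole list was near the background. The 27 genes repressed in glucose include the regulators GAL3, GAL4, CAT8, ADR1 and SIP4. They leave out GAL80, MIG1, SNF3 and RGT2, which the figures show as regulators and sensors, and every HXT gene. Of the 27 repressed genes, 9 were touched (33.3%, interval 16.5 to 54.0), beside 32.5% of genes of like length. Their mean cover was 4.84%, their median 0%, and the mean of like-length genes 5.41%. Of HXT1 to HXT4, 3 were touched (75%, interval 19.4 to 99.4), beside 30.2% of genes of like length. Their mean cover was 23.5% and their median 28.1%, where like-length genes had a mean of 5.24%. With 4 uptake genes, of which HXT1 and HXT4 lie near each other, the difference in counts rests on few genes. Here and below, such intervals treat hand-picked genes as independent and give no test between groups. No member reached 50% of its coding region inside peaks, which 4.42% of all protein-coding genes did. Peaks overlapped the coding region itself in 11 of 42 members, against 21.2% of all genes.

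**Figure D1:**
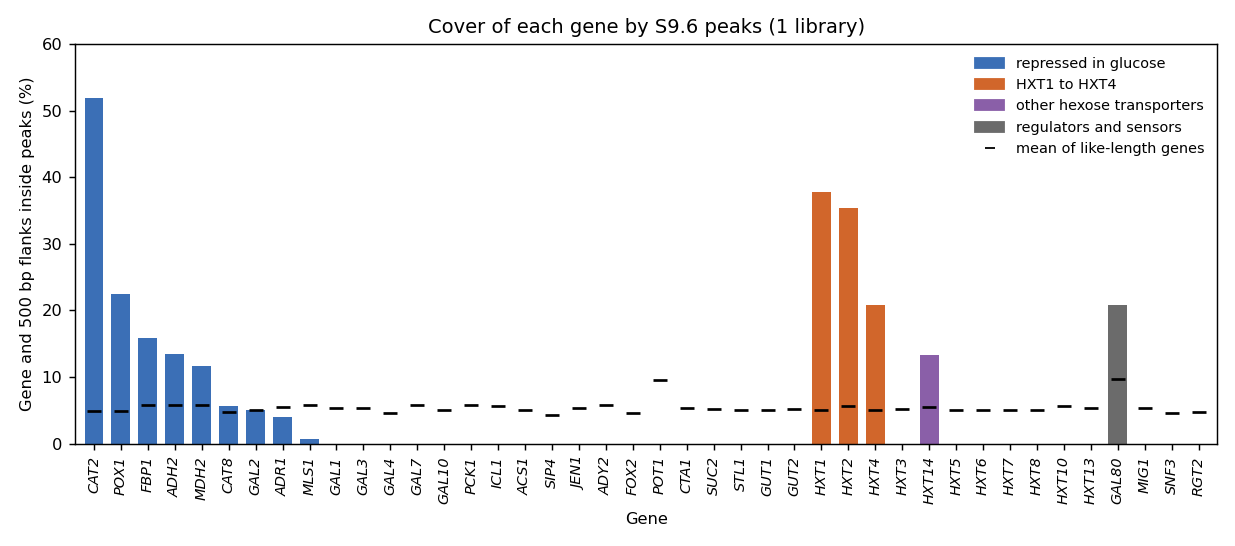
Percent of each gene and its 500 bp flanks inside S9.6 peaks (vertical axis) for the 42 genes (horizontal axis), coloured by group, with the mean of like-length protein-coding genes as a black dash. Bars of HXT1, HXT2 and HXT4 stand at 20.9% to 37.8%, CAT2 at 51.9%, and 28 genes have no bar.

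Among peaks of higher score the share of repressed genes touched fell, as did that of like-length genes, while that of HXT1 to HXT4 did not. The contrast between the groups again rests on few genes. With the 847 nuclear peaks that score 24 or more, HXT1, HXT2 and HXT4 were still touched (3 of 4), while 3 of the 27 repressed genes were (11.1%), namely CAT2, POX1 and ADH2. Such peaks touched 16.5% of all protein-coding genes, 16.4% of genes as long as the repressed ones and 15.5% of genes as long as HXT1 to HXT4. The 6 distinct peaks at HXT1 to HXT4 scored 35 at the median and none scored 15. The highest of them, at 80, had its summit outside the flank of HXT2 and touched a tRNA gene. The 12 peaks at repressed genes scored 24.5 at the median, and 4 of them scored 15. All 1687 nuclear peaks had a median score of 24, and 451 of them scored 15.

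**Figure D2:**
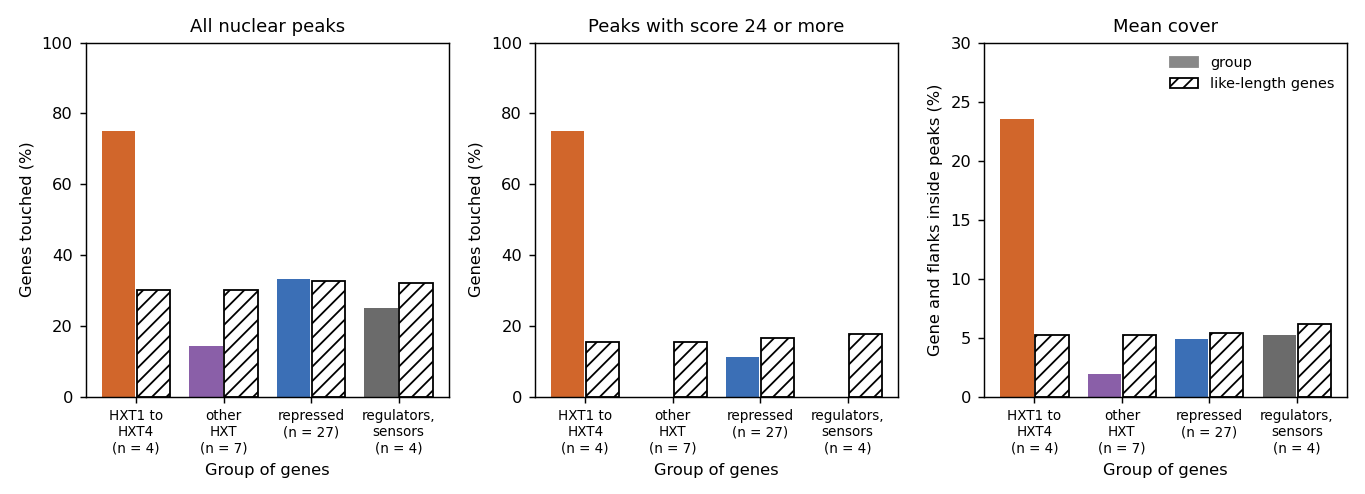
Share of genes touched by any nuclear peak (left), by peaks with a score of 24 or more (middle), and mean cover (right), all in percent, for 4 groups of genes (filled bars) and for protein-coding genes of like length (hatched bars). HXT1 to HXT4 stand at 75% in both panels of shares, while the repressed genes go from 33.3% to 11.1%. The regulators and sensors here are GAL80, MIG1, SNF3 and RGT2.

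HXT1, the low-affinity transporter of high glucose, was the most covered uptake gene. It lies on chromosome VIII (290913 to 292625, minus strand), and 30.6% of its coding region and 100% of the 500 bp upstream of it lay inside a single peak (292101 to 293150, score 52, width 1050 bp). The summit of that peak lay upstream of the gene, at -338 bp from the coding start. The peak touched no other annotated gene, and 12.9% of nuclear peaks had a score as high. Only 2.32% of 647 genes of like length had a cover as large as its 37.8%. HXT1 was the only member besides CAT2 whose whole upstream flank lay inside a peak.

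HXT2, a high-affinity transporter, had 35.4% of gene and flanks inside peaks. It lies on chromosome XIII (288079 to 289704, plus strand) and held 2 peaks in its coding region. The first (288326 to 288675, score 38) had its summit 534 bp after the start. The second (289401 to 289850, score 23) ran over the end of the gene. One more peak (290076 to 291025, score 80) reached into the downstream flank, but its summit lay outside that flank and it also touched a tRNA gene, 1.10 kb from HXT2. With peaks at tRNA genes and Ty ORFs left out, the mean cover of HXT1 to HXT4 was 22.3% in place of 23.5%. Of 666 genes of like length, 3.45% had a cover at least as large as that of HXT2.

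HXT4, like HXT2 a transporter of low glucose, lies near HXT1 on chromosome VIII, with AHT1 between them (287081 to 288811, minus strand). A peak inside its coding region (287851 to 288175, score 32) had its summit 923 bp after the start, near the middle of the gene. A second one (286526 to 286825, score 21) lay in the downstream flank and touched MSR1, the next gene. The upstream flank of HXT4 was free of peaks, unlike that of HXT1. Its cover was 20.9%, which 8.02% of 636 genes of like length reached.

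HXT3, the fourth uptake gene used in glucose, had no peak and stood apart from the other 3. It lies on chromosome IV (1162957 to 1164660), and its nearest peak was 8116 bp away, a distance that 14.7% of all protein-coding genes reach or exceed. HXT6 and HXT7, high-affinity transporters that are nearly identical in sequence and known to be repressed by high glucose, lie beside it. They were counted with the other hexose transporters, not with the genes repressed in glucose. Their nearest peaks were 11456 and 8016 bp away. The 3 genes share a stretch without peaks on chromosome IV from 1146201 to 1172775, which is 26.6 kb long and holds 11 protein-coding genes. Of the 1671 gaps between nuclear peaks, 4.43% are as long or longer, and the median gap is 2975 bp. Long gaps hold many genes, so this share of gaps is not a share of genes. Longer stretches without peaks held other members too: the GAL7 to GAL1 genes (27.1 kb), SNF3, GAL3, PCK1, MIG1, ACS1, GUT1 and SIP4 (40.25 kb). The sources used here do not say how reads that match several places were treated. The absence of peaks over HXT6 and HXT7, and over HXT3 as far as it shares sequence with HXT1, is uncertain for each gene. The same limit holds for the peaks in the coding regions of HXT1, HXT2 and HXT4, as far as these genes share sequence.

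**Figure D3:**
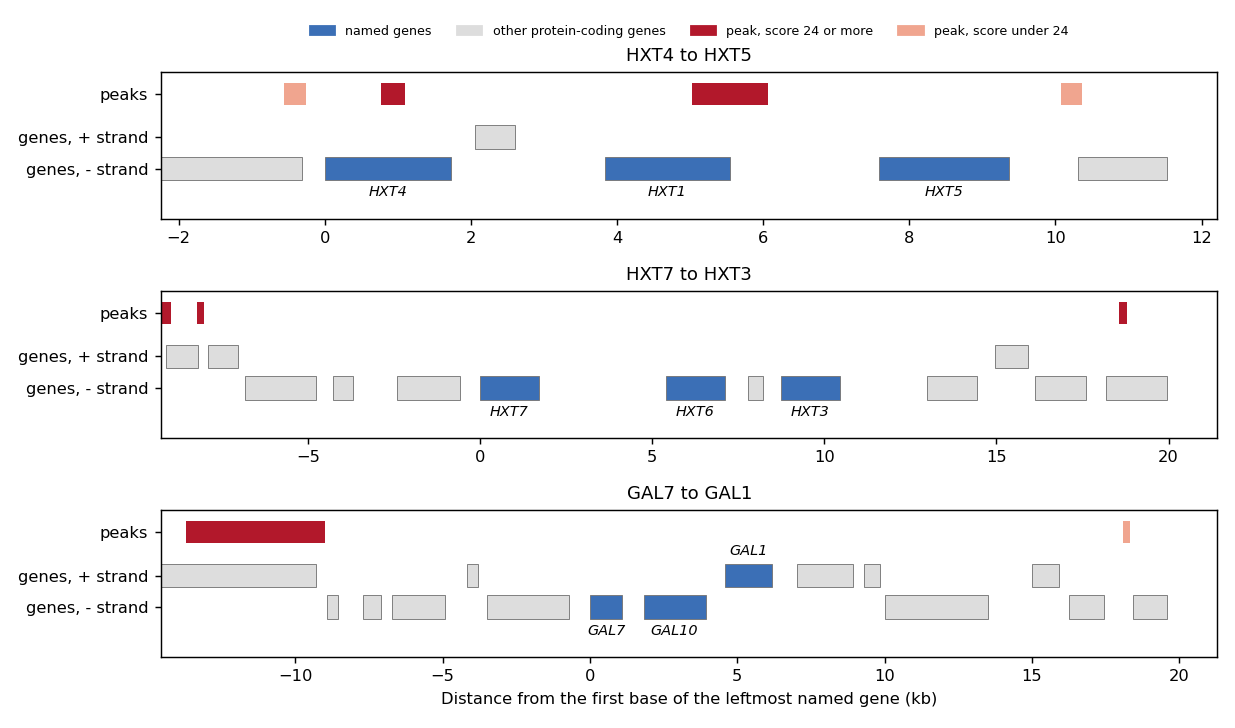
Peaks (upper track) and protein-coding genes by strand (lower tracks) at 3 loci, drawn to scale in kb from the first base of the leftmost named gene. Peaks lie over HXT4 and the upstream end of HXT1, while no peak lies between 8.02 kb to the left of HXT7 and 8.12 kb to the right of HXT3, nor over GAL7, GAL10 and GAL1.

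The 7 other hexose transporters were mostly without peaks. Of these, 1 was touched (14.3%, beside 30.1% of genes of like length), with a mean cover of 1.91%, and none was touched by a peak scoring 24 or more. The touched gene was HXT14 on chromosome XIV (38707 to 40329), a family member linked to galactose transport. A peak with a score of 15 lay over its end and reached YNL320W, for a cover of 13.3%. HXT5, a transporter of slow growth and the next gene after HXT1, lay 704 bp from its nearest peak, which scored 17 and touched PAL2. HXT8, HXT10 and HXT13, little-expressed family members, lay 5262, 6816 and 5137 bp from the nearest peak. HXT8 and HXT13 also lie within 30 kb of a chromosome end. Of the 7 genes, 5 were over 5 kb from any peak, as were 27.7% of all protein-coding genes. Of 5 further family members outside the list (HXT9, HXT11, HXT15, HXT16 and HXT17), all of them within 30 kb of an end, a peak touched 1, HXT9, in its downstream flank.

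The galactose enzymes were free of peaks. GAL1, galactokinase (chromosome II, 279021 to 280607), GAL10, the epimerase (276253 to 278352), and GAL7, the uridylyltransferase (274427 to 275527), lie side by side. They lay 11919, 10828 and 9002 bp from the nearest peak. Their shared stretch without peaks ran from 265426 to 292525, 27.1 kb with 13 protein-coding genes, and included the shared upstream region from which GAL1 and GAL10 are transcribed in opposite directions. GAL2, the galactose permease and a relative of the Hxt proteins (chromosome XII, 290212 to 291936), had no peak in its coding region. A peak with a score of 15 took up 27.2% of its downstream flank and touched SRL2.

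Among the regulators of the galactose genes only GAL80 was touched. GAL80 encodes the inhibitor that binds the activator Gal4 and is made without galactose too, so it was not counted with the repressed genes. It lies on chromosome XIII (171594 to 172901), and 28.7% of its coding region was inside a peak of score 15 (172426 to 172800) near its end. Another peak, with a score of 23, reached 21.4% of its upstream flank from SUR7. The cover of 20.9% was reached by 12.9% of 691 genes of like length, and neither peak scored 24 or more. GAL4, the activator, lay 7320 bp from the nearest peak, and GAL3, the galactose sensor and a paralog of GAL1, 6580 bp. Thus 1 of the 3 regulators was touched, beside 31.7% of genes of like length, and 1 of the 4 genes of uptake and enzymes, in a flank only, beside 30.3%.

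In gluconeogenesis and the glyoxylate cycle, 3 of 5 genes were touched, beside 30.2% of genes of like length, by peaks that all scored under 24. FBP1, fructose bisphosphatase, the enzyme that reverses phosphofructokinase (chromosome XII, 873746 to 874792), was the only one with a peak in its coding region. That peak (874601 to 874925, score 17) lay across the coding start, with its summit 16 bp inside the gene, and gave a cover of 15.9%. A tRNA gene lies 0.584 kb from FBP1 and was not touched by it. MDH2, cytosolic malate dehydrogenase (chromosome XV, 81787 to 82920), had a peak of score 23 in its downstream flank, 62 bp from the gene, which gave a cover of 11.7%. At MLS1, malate synthase, a peak of score 15 that touched DCP2 reached 18 bp into the upstream flank, a cover of 0.675%. PCK1, phosphoenolpyruvate carboxykinase, the first committed enzyme of the pathway, lay 10625 bp from a peak. ICL1, isocitrate lyase, which opens the glyoxylate cycle, lay 1637 bp from one. The count of 3 in this group thus rests on the flanks, since 1 of 5 coding regions was touched.

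CAT2, carnitine acetyltransferase, which readies acetyl units for transport into mitochondria, was the most covered of all 42 genes and of the group of ethanol, acetate and lactate use. It lies on chromosome XIII (192788 to 194800), and 28.0% of its coding region and 100% of each flank were inside 3 peaks. The upstream peak (190701 to 192850, score 80) was 2150 bp wide and ended 62 bp after the start of CAT2. Its summit lay at -1612 bp from that start, and it touched RRN11. A middle peak (193326 to 193700, score 26) lay wholly within CAT2. The downstream one (194676 to 195375, score 52) had its summit 13 bp past the coding end and touched VPS71. Of 540 genes of like length, 0.741% had a cover as large as its 51.9%. A tRNA gene lies 1.27 kb and a Ty ORF 1.83 kb from CAT2, though none of its 3 peaks touched them, and the part of that neighbourhood in the cover of CAT2 was not tested. Without CAT2, the mean cover of the repressed genes fell to 3.03% and the count to 8 of 26.

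ADH2, the alcohol dehydrogenase that oxidises ethanol and is a textbook case of glucose repression, had 26.3% of its coding region in a peak. The gene lies on chromosome XIII (873291 to 874337), and the peak (873426 to 873700, score 32) had its summit 786 bp after the start, in the later part of the gene. Both flanks were free of peaks. ADH2 is closely similar in sequence to ADH1, the fermentative enzyme, whose coding region lay 100% inside peaks. Reads shared between the pair could not be told apart here, so the value of ADH2 is uncertain. The other 3 genes of the group had no peak, so 2 of 5 were touched, beside 30.3% of genes of like length: ACS1, acetyl-CoA synthetase, lay 12679 bp from one, ADY2, the acetate transporter, 3473 bp, and JEN1, the lactate permease, 2034 bp.

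Of the peroxisomal genes of fatty acid oxidation, POX1, acyl-CoA oxidase and the first step of the pathway, was touched. It lies on chromosome VII (108158 to 110404), and a peak of score 32 (109576 to 110100) lay in the last part of its coding region, with the summit 1605 bp after the start. A second peak (score 26, 110701 to 110975) covered 40.8% of the downstream flank and touched no annotated gene, though a tRNA gene lies 0.221 kb from POX1. Its cover of 22.5% was reached by 5.19% of 443 genes of like length. FOX2, the multifunctional enzyme of the next steps, lay 1022 bp from a peak, POT1, the thiolase, 3491 bp, and CTA1, peroxisomal catalase, 3521 bp. The count of 1 in 4 stands beside 32.9% of genes of like length.

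None of the 4 genes of sucrose and glycerol use was touched, beside 31.2% of genes of like length. SUC2, invertase, was the nearest, with a peak of score 15 that ended 685 bp upstream of it. GUT2, mitochondrial glycerol phosphate dehydrogenase, lay 1393 bp from a peak, GUT1, glycerol kinase, 3168 bp, and STL1, the glycerol symporter, 4405 bp. STL1 and JEN1 are the repressed genes that lie within 30 kb of a chromosome end.

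Apart from the galactose regulators, the list has 6 regulators and sensors, each with a single peak of the commonest score or none. Of these 6, 2 were touched, beside 38.6% of genes of like length. CAT8, ADR1 and SIP4 are also counted among the 27 repressed genes. CAT8, the activator of gluconeogenic genes (chromosome XIII, 827028 to 831329), held a peak of score 15 that made up 6.97% of its coding region, 1791 bp after the start at the summit. ADR1, the activator of ADH2 and of peroxisomal genes (chromosome IV, 895035 to 899006), held a peak of score 15 over 5.04% of it. These are the longest members, 4302 and 3972 bp, and genes of such length were touched in 55.0% and 49.2% of cases. A peak somewhere in them is thus common for their size. SIP4, an activator of the same genes as CAT8, lay 13236 bp from the nearest peak, the largest distance among the 42 genes, which 5.01% of all protein-coding genes reach. MIG1, the repressor of many of the other members, lay 3764 bp away. SNF3, the low-glucose sensor, and RGT2, the high-glucose sensor, both relatives of the transporters, lay 6967 and 3526 bp away.

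**Figure D4:**
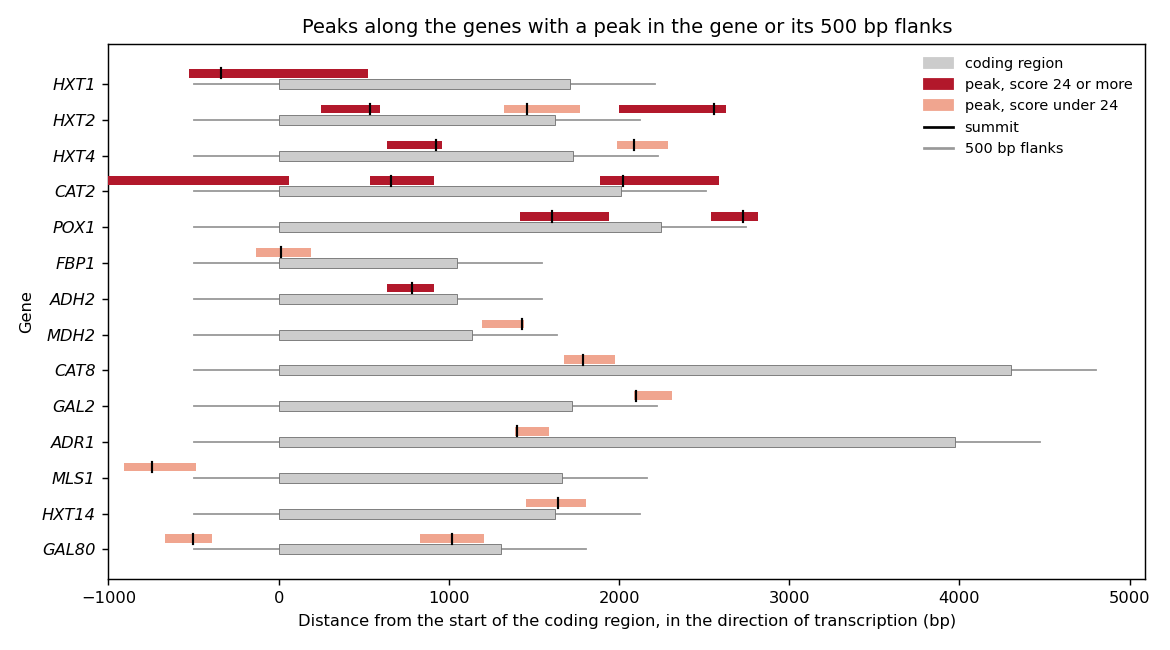
Peaks along the 14 touched genes, in bp from the start of the coding region in the direction of transcription, with coding regions in grey (CAT2 starts its first peak beyond the left edge), 500 bp flanks as thin lines, summits as black ticks and peaks drawn up to 1000 bp beyond the gene. Peaks with a score of 24 or more (dark red) lie at HXT1, HXT2, HXT4, CAT2, POX1 and ADH2, and HXT1 and FBP1 have one across the coding start.

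Across the members, the peaks had no common place along the gene. The upstream flank was touched in 5 of 42 members and in 13.5% of all genes, and the downstream flank in 7 of 42 members and in 14.7% of all genes. A peak crossed the coding start in HXT1, FBP1 and CAT2, lay inside the coding region in HXT2, HXT4, ADH2, POX1, CAT2, CAT8, ADR1 and GAL80, crossed the coding end in HXT2, HXT14 and CAT2, and lay only in a flank at GAL2, MLS1 and MDH2. The 21 distinct peaks at members scored 23 and spanned 350 bp at the median, close to the 24 and 325 bp of all nuclear peaks. Of them, 13 touched no other annotated gene. These include the peaks in the downstream flanks of MDH2 and POX1, which touched no gene at all. The 28 untouched members lay 685 to 13236 bp from the nearest peak, with a median of 5199.5 bp, and 15 of all 42 were over 5 kb away, beside 27.7% of all protein-coding genes.

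Genes of the same pathways outside the list were set beside all protein-coding genes, of which 30.6% were touched at a mean cover of 6.79%, and not beside genes of like length. Of 22 further genes repressed in glucose, 4 were touched (18.2%, exact binomial 95% interval 5.19 to 40.3), with a mean cover of 1.41%: PXA1 and PXA2, the peroxisomal fatty acid transporter, ATO3, and REG2. Covers were 11.1% for PXA1, 10.9% for ATO3, 5.64% for PXA2 and 3.37% for REG2. Of 18 genes of glucose signalling, 3 were touched (16.7%, interval 3.58 to 41.4), with a mean cover of 1.04%: MTH1 and RGT1, which together repress HXT genes without glucose, and GRR1, which marks Mth1 for degradation. Their covers were 8.69% for MTH1, 7.85% for GRR1 and 2.13% for RGT1. SNF1, the kinase that lifts repression, and HXK2, the main hexokinase, were not touched. All 11 glycolytic and fermentation genes set beside them, a list chosen with its result known, were touched, 10 of them by peaks scoring 24 or more, with a mean cover of 48.4%. At least 50% of the coding region lay inside peaks in 7 of them: TDH3 and ADH1 at 100%, FBA1, the aldolase, at 82.7%, ENO2 and ENO1, enolases, at 75.3% and 57.1%, CDC19, pyruvate kinase, at 70.7%, and TDH2, a paralog of TDH3, at 67.6%. HXT1, at 37.8%, and HXT2, at 35.4%, were within the range of these genes, which ran from 22.0% for PGK1 to 100% for TDH3. So were the repressed genes CAT2, at 51.9%, and POX1, at 22.5%. HXT4 and GAL80, both at 20.9%, lay just under that range. Reads shared between paralogs such as TDH2 and TDH3 could not be told apart here, so the covers of such genes are uncertain.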

How the data were processed

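DRIP-seq peaks of 1 S9.6 IP library were analysed. The submitters' processing notes name MACS2 2.1.1.20160309, SAMtools 1.7 and build sacCer3. The sources used here give neither the aligner, nor the threshold, nor how the input entered the peak calls. In the deposited list there are 1723 peaks, 1687 of them nuclear, each with a score that is the authors' value on an unstated scale. Its fold, p and q columns hold 0 throughout and were not used. Depth is unknown. All nuclear peak starts lie on a 25 bp grid and the shortest peak is 200 bp, which limits the precision of positions.

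Gene positions came from the RefSeq gene table of assembly R64 (the sacCer3 sequence). Strand was read from systematic names, and chromosomes were taken to run to the last gene or peak end. Cover was computed with Python 3.11.15, pandas 2.3.3 and numpy 2.4.6, and tested on simulated data. Coordinates are 1-based. Like-length genes were the non-members within 10% of a member's length. A group's like-length value is the mean over its members. Values are descriptions without tests. The members, groups and pathway lists were chosen with earlier results of these data known. Every member is named; of pathway genes, the rule was to name those with at least 50% of the gene inside peaks, and the other pathway genes named, among them all the touched genes of the repressed and signalling lists, were chosen after their values were seen. No sequences were used here, so the planned motif searches were not run.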

Additional observations from a re-analysis of the deposited data

How the results depend on the processing

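Alternatives were peaks scoring 24 or more, a cover of at least 10% to count as touched, the gene alone, flanks of 1000 bp, the 200 bp around summits, no peaks at tRNA genes or Ty ORFs (165 peaks), no genes within 30 kb of chromosome ends, and length deciles. HXT1 to HXT4 kept a count of 3 in each alternative run for it. The count of 14 members fell to 6 with peaks scoring 24 or more and otherwise ran from 10 to 16. The count of 9 repressed genes fell to 3 with those peaks and to 5 with a cover of at least 10%, and otherwise ran from 6 to 10. In the same order (score, 10% cover, gene alone, 1000 bp flanks, summits, without ends) the share of like-length genes touched, 31.9%, became 16.3%, 18.7%, 23.7%, 38.4%, 29.9% and 33.1%. The mean cover of repressed genes was 3.25% with peaks scoring 24 or more, 3.998% for the gene alone, 4.95% with 1000 bp flanks, 2.48% around summits and 5.23% without the ends. For HXT1 to HXT4 it was 17.0%, 22.4%, 21.1% and 9.31% under the first 4 of these, and 22.3% once peaks at tRNA genes or Ty ORFs were left out. For like-length genes, 5.44% became 3.45%, 4.99%, 5.55%, 2.54% and 5.69% in the order given for repressed genes, 4.76% once those peaks were left out and 5.67% with deciles. Leaving out CAT2, an alternative chosen after seeing the data, gave 3.03% for the repressed genes. The mean cover of HXT1 to HXT4 exceeded that of both other sets under each alternative run for it. With 1 library and no depth, which genes lie just under the authors' peak threshold is unknown.

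No paired analysis was possible because there is 1 IP library and no value of the input.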
